A study of Mus musculus with 18 samples.

Results

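Oxidative phosphorylation is the mitochondrial process in which 4 enzyme complexes pass electrons from NADH and succinate to oxygen. All but complex II pump protons across the inner membrane as they do so, and ATP synthase, called complex V, uses the returning protons to make ATP. Complex I oxidises NADH, complex II oxidises succinate, complex III hands electrons from ubiquinol to cytochrome c, and complex IV, cytochrome c oxidase, reduces oxygen. In macrophages, activation by IL-4 is known for a metabolism that relies on this pathway, in contrast to the glycolytic state that microbial stimuli bring about.

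The genes described here are the nuclear-encoded subunits of these 5 complexes on a mouse expression array. They were chosen by gene name as it stands in the array files: names that begin with Ndufa, Ndufb, Ndufc, Ndufs, Ndufv, Sdha to Sdhd, Uqcr or Atp5, or with Cox followed by a digit from 4 to 8, without the assembly factors whose names hold "af". This gave 81 genes of 19844 named genes, measured by 112 probes, of which the probe with the highest mean signal stands for each gene. Complex I has 36 of them, complex II 4, complex III 7, complex IV 18 and complex V 16. The subunits that the mitochondrial genome encodes have no probe under their own names and were not analysed here.

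The samples were 18 cultures of bone marrow-derived macrophages, 3 in each of 6 groups. Irf4-/- macrophages lack the transcription factor IRF4, and Irf4+/- macrophages, heterozygous littermates, were the controls, so no wild-type cells were compared. Cells of each genotype received 10 ng/ml IL-4 for 4 h or 18 h, or a mock treatment of 18 h, so that both IL-4 times are read against an 18 h mock culture. Every culture was grown from pooled marrow of 2 males and 1 female on a C57BL6/J background, aged 8 to 12 weeks, in medium with 200 ng/ml CSF1, the macrophage growth factor. Titles carry the letters A, B and C, and the study describes 3 independent experiments with littermates. A letter was therefore read as 1 experiment.

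Levels are log2 of the scanner's processed signal minus the 75th percentile of that array, so that a level of 0 is the signal of the 75th percentile. Of the 81 genes, 79 passed the signal filter, which asked that the scanner software put the probe well above background in each of the 3 arrays of some group, and were tested. Cox8b, the muscle form of subunit 8, and Cox8c, its testis form, were not. Of the 79, 78 were well above background on all 18 arrays, Cox4i2, an isoform of subunit 4 best known from lung, being the exception with 17 arrays. No probe was saturated. In the gene annotation used, 4 of the tested genes have another symbol: Uqcr is Uqcr11, Atp5f1 is Atp5pb, Atp5s is Dmac2l and Cox4nb is Emc8. Emc8 is no subunit of cytochrome c oxidase. Other tested genes may carry newer symbols elsewhere.

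All 8 macrophage markers on the array were well above background on every array. The Irf4 probe was no lower in arrays labelled Irf4-/-: mock cultures read -0.97, -0.53 and -0.81, against -1.15, -0.36 and -1.80 in Irf4+/- mock cultures. Neither the labels nor the array files say whether the probe falls in the deleted stretch, so its signal does not check the genotype labels, which are used as given. The same letter's arrays deviated from their group means together (correlation over genes 0.454 to 0.737 for 27 pairs between genotypes and 0.634 to 0.865 for 18 pairs within one). Arrays of different letters had a median of -0.39 between genotypes and -0.52 within one. Subtracting group means itself brings about such negative values once the same letter's arrays go together, so they add nothing to the positive ones. Letter A had the highest median subunit level in each of the 6 groups. This level was 4.13 to 4.87 on its 6 arrays, 3.60 to 3.92 on those of letter B and 3.77 to 4.21 on those of letter C. Over groups, the ranges of letters A and C thus overlapped. The median of all genes tested was also highest in letter A, at -0.08 to -0.06, against -0.15 to -0.10 in letters B and C. Letters A and B each had 1 slide per genotype, and the 6 letter C arrays lay on 3 slides, so that every 18 h array of letter C was on another slide than its mock array.

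After 18 h of IL-4 the median of the subunit genes was higher than in mock cells in both genotypes, except under one background correction in Irf4+/- cells, described below. Their median log2 difference from mock was 0.41 in Irf4-/- macrophages, a 1.33-fold higher signal, and 0.39 in Irf4+/- macrophages, a 1.31-fold higher signal. The median over all 14821 genes tested was 0.12 in Irf4-/- and 0.03 in Irf4+/- macrophages. In Irf4-/- cells 76 of 79 subunit genes were higher in all 3 letters (96.2%, against 41.8% of all genes tested), and in Irf4+/- cells 72 were (91.1%, against 30.8% of all genes tested).

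The spread between letters was as large as these differences. In limma with a mean per group and no term for the letter, 0 of 79 subunit genes passed an adjusted p of 0.05 in either genotype, where 2.14% of all genes were called higher and 1.5% lower in Irf4-/- cells, and 2.2% higher and 2.15% lower in Irf4+/- cells. At an unadjusted p of 0.05, 4 subunit genes were higher in each genotype (5.06%, against 7.96% of all genes in Irf4-/- and 5.86% in Irf4+/-). With the letter as a block, which compares IL-4 and mock within each experiment, 27 of 79 genes were called higher in Irf4-/- cells (34.2%, against 11.8% of all genes) and 25 in Irf4+/- cells (31.6%, against 7.91% of all genes). None was called lower by limma with that block, where 6.86% of all genes were in Irf4-/- and 8.01% in Irf4+/- cells. With normexp background correction in place of the scanner's processed signal, the median of the subunit genes was 0.47 in Irf4-/- cells and -0.05 in Irf4+/- cells, the median of all genes -0.03 and 0.12, and 1 gene was called with the block in each genotype. With normexp fitted without spots far dimmer than their local background, a setting chosen after seeing the data, the medians were 0.37 and 0.38 and the calls with the block 26 and 31. Scaling each array to its median in place of its 75th percentile left 2 calls in Irf4-/- and 5 in Irf4+/- cells, with medians of 0.35 and 0.38. The share of all genes called with normexp or with median scaling is not given.

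**Figure D1:**
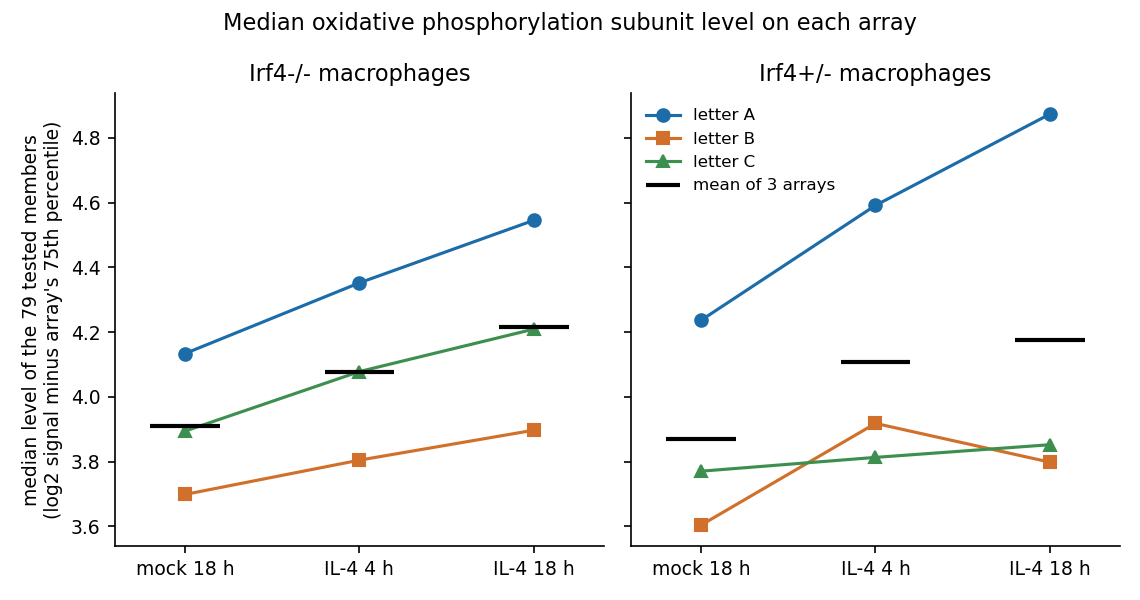
Median level of the 79 tested subunit genes on each of the 18 arrays, in log2 signal minus the array's 75th percentile, for Irf4-/- macrophages (left) and Irf4+/- macrophages (right). Lines join arrays of 1 letter and bars are means of 3 arrays; letter A lies highest in all 6 groups, and the 18 h array lies above the mock array in every letter.

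Medians of the subunit levels in Irf4-/- cells were 4.55, 3.90 and 4.21 in letters A, B and C after 18 h of IL-4, against 4.13, 3.70 and 3.89 in mock cultures. In Irf4+/- cells they were 4.87, 3.80 and 3.85 after 18 h of IL-4, against 4.24, 3.60 and 3.77 in mock cultures. Within every letter the IL-4 array was the higher one, while the IL-4 arrays of letters B and C lay below the mock array of letter A except in Irf4-/- letter C. The groups failed to overlap, with IL-4 higher, for 24 genes in Irf4-/- cells (30.4%, against 14% of all genes) and for 3 genes in Irf4+/- cells (3.8%, against 6.9% of all genes).

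Since the median difference over all genes varied with signal, the subunits are set beside genes of like signal. Of probes at a mean level from 2 to 4, the 29 subunit genes had a median difference of 0.35 in Irf4-/- and 0.38 in Irf4+/- cells, and the 2594 other genes 0.12 and 0.07. At levels from 4 to 6, the 31 subunit genes had 0.43 in both genotypes, and the 975 other genes 0.18 and 0.09. At levels above 6, the 8 subunit genes had 0.52 in Irf4-/- and 0.37 in Irf4+/- cells, and the 253 other genes 0.40 and 0.19. At levels from 0 to 2, the 7 subunit genes had 0.32 in Irf4-/- and 0.35 in Irf4+/- cells, and the 3356 other genes 0.04 and 0.01. Below a level of 0 the order was the other way round: the 4 subunit genes had 0.11 in Irf4-/- and -0.04 in Irf4+/- cells, and the 7564 other genes 0.15 and 0.00.

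Promoter windows of a few genes that were called with the block at 18 h in both genotypes are printed, at most a gene per complex. Within a complex, a gene with a motif match inside the printed part was taken before genes without. The printed windows thus do not show how often such genes hold a motif. The windows, credited to RefSeq (build GRCm38.p6), run from 170 bases before the start of transcription to 30 after it, 5′ to 3′ along the gene, and capitals mark a match on either strand to a motif named in the next paragraph. Ndufa11 lies at chr17:56717592-56717791 on the plus strand, Uqcr (Uqcr11) at chr10:80406792-80406991 on the minus strand, Atp5h at chr11:115419890-115420089 on the minus strand and Cox7b at chrX:106015530-106015729 on the plus strand.
Ndufa11: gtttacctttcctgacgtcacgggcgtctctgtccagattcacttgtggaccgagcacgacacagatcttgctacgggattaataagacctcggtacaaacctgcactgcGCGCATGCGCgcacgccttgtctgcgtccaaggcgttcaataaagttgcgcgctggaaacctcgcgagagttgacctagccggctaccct
Uqcr: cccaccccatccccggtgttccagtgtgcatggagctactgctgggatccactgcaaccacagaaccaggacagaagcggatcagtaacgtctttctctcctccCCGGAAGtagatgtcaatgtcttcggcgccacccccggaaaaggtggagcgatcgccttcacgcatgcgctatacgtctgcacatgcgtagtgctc
Cox7b: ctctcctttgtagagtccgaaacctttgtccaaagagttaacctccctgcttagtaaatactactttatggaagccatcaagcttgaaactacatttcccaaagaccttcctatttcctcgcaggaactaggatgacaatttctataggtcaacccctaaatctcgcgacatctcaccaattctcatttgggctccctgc
Atp5h: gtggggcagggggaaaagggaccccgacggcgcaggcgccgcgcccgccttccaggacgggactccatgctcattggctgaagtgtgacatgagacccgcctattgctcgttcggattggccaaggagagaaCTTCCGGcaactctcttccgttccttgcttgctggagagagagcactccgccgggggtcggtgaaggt

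Of the 81 genes, 66 matched the table by symbol, with 71 windows of 250 bases before and 50 after the start. The motifs were searched on both strands, and no match of one overlapped a match of another in these windows. The ETS core CCGGAAG, the kind of site that the factor GABP binds, was in a window of 24.2% of the 66 genes and of 9.93% of all 27025 genes in the table. The YY1 motif AAGATGGCG was in 10.6% of the subunit genes and 1.64% of all genes, the NRF1 motif, GCGCA followed directly by TGCGC, in 7.58% and 1.07%, and the ERR motif TCAAGGTCA in 3.03% and 0.466%. The STAT6 motif, TTC and GAA set 4 bases apart, of the factor that the IL-4 receptor activates, was in 6.06% of the subunit genes and 8.01% of all genes. Of the genes called at 18 h in both genotypes, 14 matched the table. Among these, Atp5h, Atp5l, Ndufb6 and Uqcr held the ETS core and Ndufa11 the NRF1 motif. Atp5j2 and Ndufc1 held the YY1 motif, and Ndufc1 the STAT6 motif. A link between motif and call was not tested. The subunit genes with a match numbered 16 for ETS, 7 for YY1, 5 for NRF1, 2 for ERR and 4 for STAT6. These matches are descriptions of letters in a window, and the genes of the table were not matched to the subunits for signal.

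**Figure D2:**
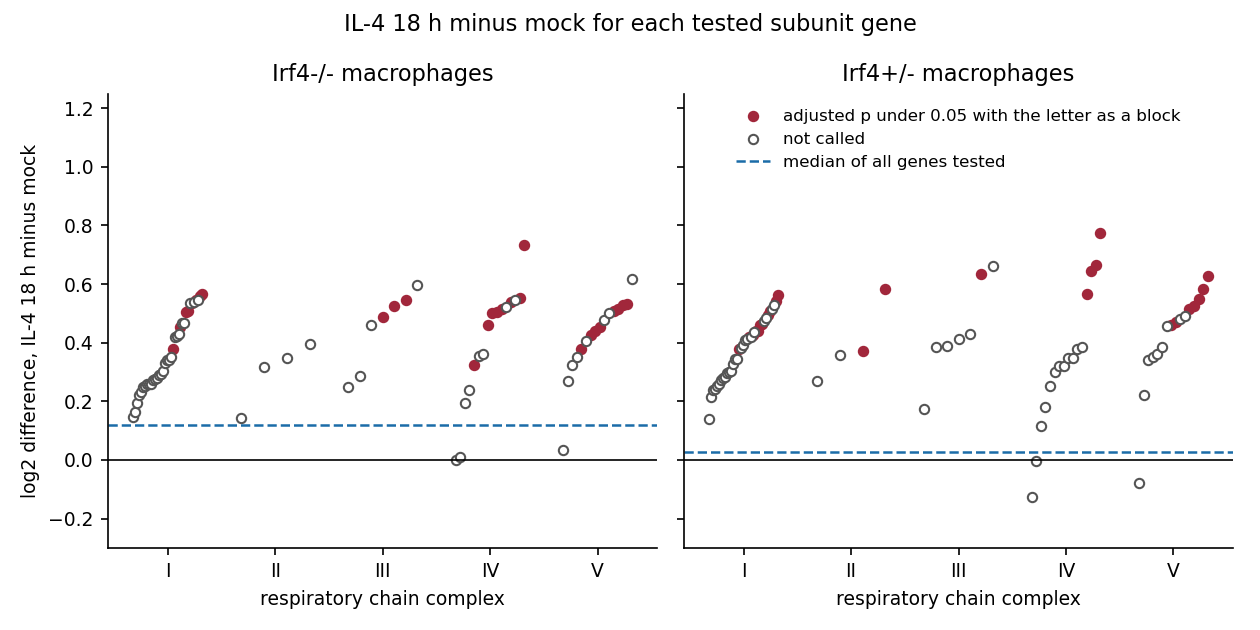
Log2 difference of IL-4 18 h minus mock for each of the 79 tested subunit genes, by complex, in Irf4-/- macrophages (left) and Irf4+/- macrophages (right). Filled points have an adjusted p under 0.05 in limma with the letter as a block, the dashed line is the median of all genes tested (0.12 and 0.03), and most points lie above it in each complex.

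Complex I, the entry point for electrons from NADH, had a median difference at 18 h of 0.34 in Irf4-/- and 0.40 in Irf4+/- cells over 36 genes, each with a mean above 0 in both genotypes. The fit with the letter as a block called 11.8% of all genes higher in Irf4-/- and 7.91% in Irf4+/- cells, shares against which each complex is read. With it, 8 genes of complex I were called higher in Irf4-/- and 11 in Irf4+/- cells. The 6 called in both were Ndufa11, Ndufb2, Ndufb5, Ndufb6 and Ndufc1, accessory subunits, and Ndufa4, long counted with complex I and now placed with complex IV. Ndufa11, an accessory subunit of the membrane arm, read 0.71, -0.25 and -0.05 in letters A, B and C of Irf4-/- cells after 18 h of IL-4, against 0.21, -0.64 and -0.52 in mock cells. In Irf4+/- cells it read 1.00, -0.26 and -0.07 after IL-4, against 0.18, -0.64 and -0.54 in mock cells. The IL-4 and mock arrays of Ndufa11 overlapped between letters, and within each letter the IL-4 array was the higher, by 0.39 to 0.50 in Irf4-/- and by 0.39 to 0.83 in Irf4+/- cells.

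The Ndufa11 difference was 0.45 in Irf4-/- cells (SE 0.41 without the block and 0.12 with it, adjusted p 0.747 and 0.0161 in limma) and 0.56 in Irf4+/- cells (the same SEs, adjusted p 0.795 and 0.00431). A further Ndufa11 probe gave 0.43 and 0.60. Ndufb6, also in the membrane arm, was 0.51 higher in Irf4-/- and 0.49 higher in Irf4+/- cells (adjusted p with the block 0.00672 and 0.00738). Its letters gave 0.39, 0.44 and 0.70 in Irf4-/- and 0.58, 0.48 and 0.42 in Irf4+/- cells. Ndufa4 differed by 0.51 in Irf4-/- and 0.44 in Irf4+/- cells, Ndufb5 by 0.54 in both, and Ndufc1 by 0.56 in Irf4-/- and 0.46 in Irf4+/- cells.

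Among the core subunits of complex I, which carry its electrons, Ndufs1, Ndufs7 and Ndufs8 were called in Irf4+/- cells. Ndufs1, the largest core subunit and a carrier of iron-sulfur clusters, read 4.08, 3.80 and 3.86 in Irf4-/- cells after IL-4, against 3.70, 3.59 and 3.58 in mock cells, and 4.25, 3.70 and 3.75 in Irf4+/- cells after IL-4, against 3.58, 3.39 and 3.58 in mock cells. No IL-4 array of Ndufs1 reached down to a mock array of the same genotype. The difference of 0.38 in Irf4+/- cells was called with the block (adjusted p 0.0257 and 0.319 without it) and that of 0.29 in Irf4-/- cells was not (0.0736 with the block). Ndufv2, an iron-sulfur subunit of the NADH-oxidising tip, differed by 0.38 in Irf4-/- cells, where it was called with the block, and by 0.30 in Irf4+/- cells, where it was not. Ndufv1, which binds NADH, differed by 0.29 in Irf4-/- and 0.30 in Irf4+/- cells and was called in neither. Ndufs4, an accessory subunit of the tip, had the smallest difference of the complex, 0.15 in Irf4-/- and 0.14 in Irf4+/- cells.

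Complex II, succinate dehydrogenase, also belongs to the citric acid cycle. None of its 4 genes was called in Irf4-/- cells, and 2 were with the block in Irf4+/- cells. Sdhd, a membrane anchor, read 5.00, 4.29 and 4.45 in Irf4-/- cells after 18 h of IL-4, against 4.67, 3.90 and 3.98 in mock cells, and 5.45, 4.36 and 4.24 in Irf4+/- cells after IL-4, against 4.53, 3.80 and 3.97 in mock cells. Its difference was 0.40 in Irf4-/- (adjusted p with the block 0.0761) and 0.58 in Irf4+/- cells (0.0147). Sdha, the flavoprotein that oxidises succinate, differed by 0.14 in Irf4-/- (0.382) and by 0.37 in Irf4+/- cells (0.0335), and its letters in Irf4-/- cells gave 0.33, 0.15 and -0.05. A further Sdha probe gave 0.18 in both genotypes. Sdhb, the iron-sulfur subunit, differed by 0.35 and 0.27 and Sdhc, the other anchor, by 0.32 and 0.36, in Irf4-/- and Irf4+/- cells. The difference between genotypes in the Sdha response, -0.23 (SE 0.15 with the block), had an adjusted p of 1.00 in limma with that block.

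Complex III had a median difference of 0.49 in Irf4-/- and 0.41 in Irf4+/- cells over 7 genes, with 3 called with the block in Irf4-/- and 1 in Irf4+/- cells. The gene called in both was Uqcr, a small subunit. It read 5.36, 4.63 and 4.72 in Irf4-/- cells after IL-4, against 4.72, 4.13 and 4.22 in mock cells, and 5.88, 4.52 and 4.47 in Irf4+/- cells after IL-4, against 4.97, 3.92 and 4.08 in mock cells. The IL-4 arrays were higher by 0.50 to 0.64 within letters in Irf4-/- and by 0.39 to 0.91 in Irf4+/- cells, and the mean differences were 0.55 and 0.63 (adjusted p with the block 0.0299 and 0.0145). Uqcrfs1, the Rieske iron-sulfur protein, differed by 0.52 in Irf4-/- cells, where it was called, and by 0.39 in Irf4+/- cells, where it was not. The 2 core proteins parted: Uqcrc1 differed by 0.60 in Irf4-/- and 0.66 in Irf4+/- cells without a call (adjusted p with the block 0.0707 and 0.0532), and Uqcrc2 by 0.25 and 0.17.

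Complex IV held the largest and the smallest differences, and its genes come in isoforms named for the tissues in which they are best known. With the block, 8 of 16 tested genes were called in Irf4-/- and 4 in Irf4+/- cells, around medians of 0.48 and 0.33. Cox4nb, which is no subunit of this complex, was among those called in Irf4-/- cells. Cox7b, a small subunit, had the smallest p of all subunit genes with the block in both genotypes. It read 4.22, 3.31 and 3.67 in Irf4-/- cells after 18 h of IL-4, against 3.82, 2.85 and 3.01 in mock cells, and 4.26, 3.22 and 3.45 in Irf4+/- cells after IL-4, against 3.55, 2.58 and 2.88 in mock cells. Within letters the IL-4 array was higher by 0.39 to 0.66 in Irf4-/- and by 0.57 to 0.71 in Irf4+/- cells. The mean difference was 0.50, a 1.42-fold higher signal, in Irf4-/- (SE 0.10 with the block, adjusted p 0.00428, and 0.658 without it) and 0.64, 1.56-fold, in Irf4+/- cells (adjusted p 0.000672, and 0.583 without it). Over all settings tried, the adjusted p of Cox7b ran from 0.00369 to 0.958 in Irf4-/- and from 0.000672 to 0.997 in Irf4+/- cells.

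Cox6a2, the heart and muscle isoform of subunit 6a, had the largest difference of the subunit genes in both genotypes. It read 0.65, 0.87 and 0.59 in Irf4-/- cells after IL-4, against -0.30, 0.44 and -0.24 in mock cells, and 0.57, 0.50 and 0.44 in Irf4+/- cells after IL-4, against -0.68, 0.16 and -0.29 in mock cells. All 3 IL-4 arrays lay above all 3 mock arrays in both genotypes. The differences were 0.73 in Irf4-/- and 0.78 in Irf4+/- cells (adjusted p with the block 0.00978 and 0.00648). Cox5b, which binds zinc, differed by 0.46 and 0.57 and was called in both, and Cox8a, the widely expressed form of subunit 8, by 0.54 and 0.66 and was called in Irf4+/- cells. Cox5a differed by 0.52 and 0.39 and was called in Irf4-/- cells, while a far dimmer Cox5a probe gave -0.55 and 0.02.

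Cox6b1, the widely expressed form of subunit 6b, was called in Irf4-/- cells. Cox6b2, the form best known from testis, read -1.70, -1.88 and -2.06 in Irf4-/- cells after IL-4, against -1.60, -2.09 and -1.97 in mock cells, and -1.25, -1.63 and -2.22 in Irf4+/- cells after IL-4, against -1.20, -1.51 and -2.01 in mock cells. Groups of this gene overlapped, and its difference was 0.01 in Irf4-/- and -0.13 in Irf4+/- cells. Cox7a1, the heart and muscle form of subunit 7a, differed by 0.00 and 0.18, and Cox7a2l, a related protein that joins respiratory complexes into larger assemblies, by 0.36 and 0.11, without a call. Cox4i1, the main form of subunit 4, differed by 0.24 and 0.32 and was not called either.

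Complex V had a median difference of 0.45 in Irf4-/- and 0.47 in Irf4+/- cells over 16 genes, with 8 and 7 called with the block. Called in both genotypes were Atp5g1, one of the genes for the ring subunit c that turns as protons pass, the stalk subunits Atp5h and Atp5o, and the small membrane subunits Atp5j2 and Atp5l. Atp5j2 read 5.63, 4.31 and 4.52 in Irf4-/- cells after IL-4, against 5.04, 4.01 and 4.12 in mock cells, and 5.51, 4.33 and 4.40 in Irf4+/- cells after IL-4, against 4.67, 3.92 and 4.01 in mock cells. Letter A was far above letters B and C, and each IL-4 array was above its own mock array, by 0.29 to 0.59 in Irf4-/- and by 0.39 to 0.84 in Irf4+/- cells. Its mean differences were 0.43 and 0.55 (adjusted p with the block 0.0342 and 0.00965).

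Atp5o, which ties the stalk to the catalytic head, differed by 0.53 in Irf4-/- and 0.51 in Irf4+/- cells, and Atp5h by 0.38 and 0.47. Of the subunits that make up the catalytic head, Atp5a1 differed by 0.53 and 0.49 and was called in Irf4-/- cells, and Atp5b by 0.50 and 0.34 without a call. Atp5k, a small membrane subunit, differed by 0.48 and 0.63 and was called in Irf4+/- cells. Atp5s, whose product is no core subunit, stood apart with 0.03 and -0.08.

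In all, 15 subunit genes were called with the block at 18 h in both genotypes. These are 55.6% of the Irf4-/- calls and 60% of the Irf4+/- calls. Of all genes tested, 927 were called higher in both genotypes, 53% of the Irf4-/- and 79.03% of the Irf4+/- higher calls. The subunit share was thus near that of all genes in Irf4-/- cells and below it in Irf4+/- cells. The 12 subunit genes called in Irf4-/- cells alone and the 10 called in Irf4+/- cells alone are not thereby shown to differ between genotypes. In the test of the difference in 18 h response, limma called 0 of 79 subunit genes with or without the block. Without the block, 0 subunit genes passed an unadjusted p of 0.05. Of all genes, 0% were called with or without the block, and 0.418% were higher and 0.121% lower at that unadjusted p.

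**Figure D3:**
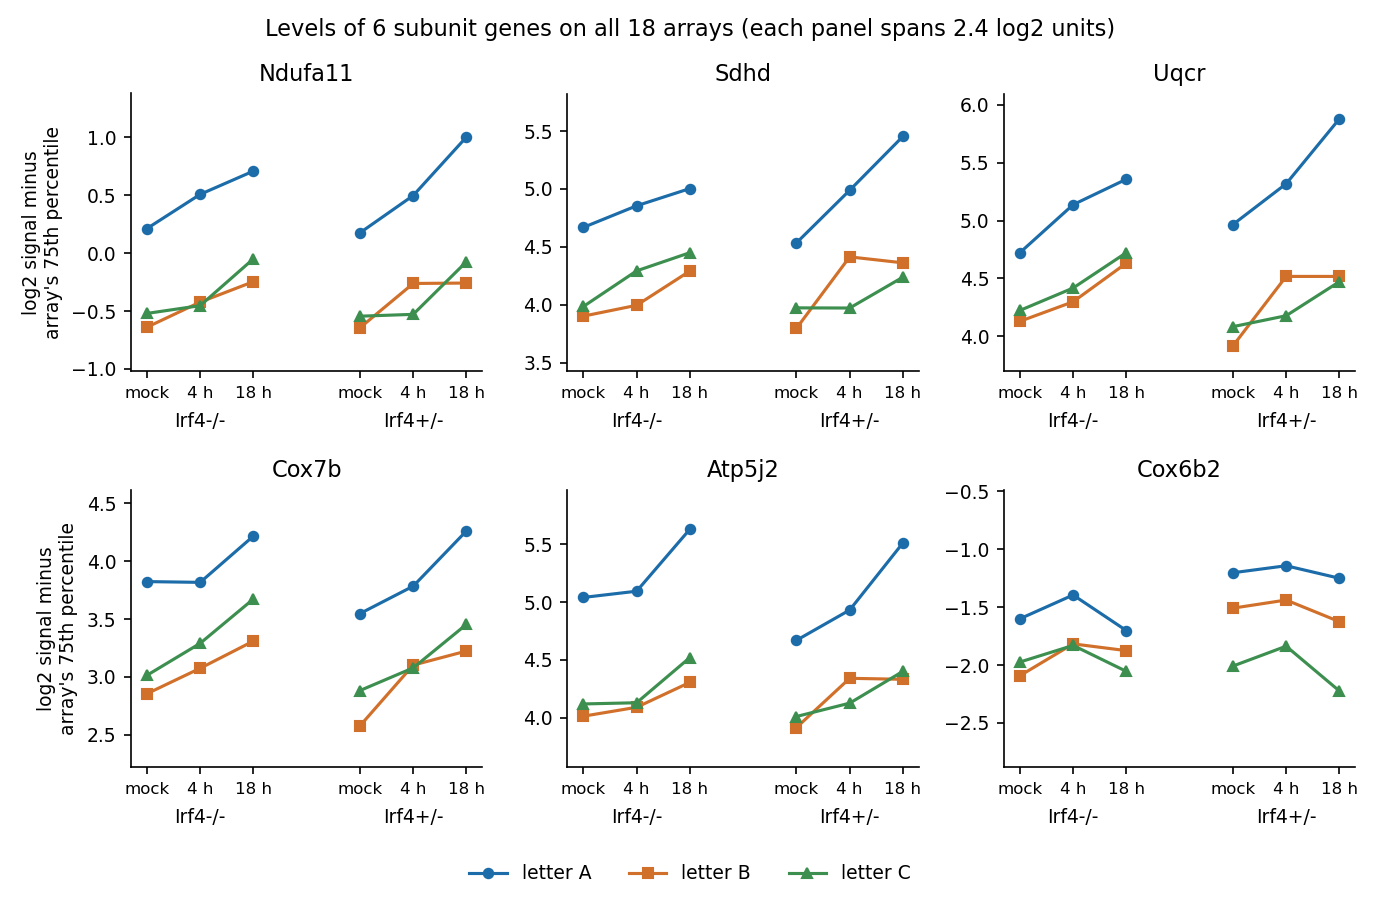
Levels of Ndufa11, Sdhd, Uqcr, Cox7b, Atp5j2 and Cox6b2 on all 18 arrays, in log2 signal minus the array's 75th percentile, for mock, IL-4 4 h and IL-4 18 h in Irf4-/- (left in each panel) and Irf4+/- macrophages (right), with a line per letter. In 5 genes the 18 h array lies above the mock array of every letter, and Cox6b2 shows no such order.

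Probes not chosen for a gene behaved much as the chosen ones. Of 27 further probes of subunit genes, 18 had a mean level of at least 0. All 18 of these lay higher at 18 h than in mock cells in both genotypes, with a median of 0.35 in Irf4-/- and 0.42 in Irf4+/- cells. The dimmer ones were mixed, and over all 27 a total of 23 were higher in Irf4-/- and 24 in Irf4+/- cells.

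The count of calls rests on having 3 letters. With the block and without letter A, B or C the count at 18 h was 9, 2 and 0 in Irf4-/- cells and 1, 3 and 3 in Irf4+/- cells. The share of all genes called without a letter is not given. The median difference within a letter, which for A and B lies within 1 slide, was 0.39, 0.33 and 0.42 in letters A, B and C of Irf4-/- cells and 0.61, 0.35 and 0.25 in those of Irf4+/- cells.

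At 4 h the subunit genes showed smaller differences from the 18 h mock cultures. The median was 0.20 in Irf4-/- cells, against 0.08 over all genes, and 0.25 in Irf4+/- cells, against -0.02 over all genes. Without the 4 h array of letter A it was 0.026 in Irf4-/- and 0.035 in Irf4+/- cells, and without the mock array of letter A 0.36 and 0.47. With normexp it was 0.35 in Irf4-/- cells, against -0.13 over all genes, and 0.14 in Irf4+/- cells, below the 0.17 of all genes. In limma without the block 0 of 79 genes were called in either genotype (2.33% of all genes higher and 1.76% lower in Irf4-/-, 2.42% higher and 2% lower in Irf4+/-), and at an unadjusted p of 0.05 0 were higher in Irf4-/- cells (7.44% of all genes) and 1 in Irf4+/- cells (7.31% of all genes). With the block, 3 genes were called higher in Irf4-/- cells (3.8%, against 10.4% of all genes) and 8 in Irf4+/- cells (10.1%, against 10.3% of all genes), and none was called lower (8.33% of all genes in Irf4-/- and 8.48% in Irf4+/- cells). Higher in all 3 letters were 63 genes in Irf4-/- cells (79.7%, against 37.6% of all genes) and 54 in Irf4+/- cells (68.4%, against 29.8% of all genes). The share called with the block at 4 h was thus at or below that of all genes tested.

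In Irf4-/- cells the 3 genes were Cox5a, Ndufv2 and Cox4nb. In Irf4+/- cells the 8 were Cox6a2, Cox7b, Cox5a, Ndufb6, Ndufs7, Ndufa12, Ndufv2 and Ndufab1, the mitochondrial acyl carrier protein, which also sits in complex I. Cox6a2 read 0.23, 0.78 and 0.39 in Irf4-/- cells after 4 h of IL-4, against the mock values above, a difference of 0.50, and 0.04, 1.05 and 0.43 in Irf4+/- cells, a difference of 0.78 that was as large as at 18 h. Cox5a was 0.50 higher in Irf4-/- and 0.45 higher in Irf4+/- cells, and each of its letters was higher by 0.48 to 0.52 in Irf4-/- and by 0.26 to 0.56 in Irf4+/- cells. Letter medians over all subunit genes at 4 h were 0.24, 0.17 and 0.18 in Irf4-/- and 0.26, 0.45 and 0.06 in Irf4+/- cells, so letter C of Irf4+/- hardly differed from its mock array.

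Set against 4 h directly, the 18 h cultures differed by a median of 0.20 in Irf4-/- and 0.14 in Irf4+/- cells, against 0.05 and 0.02 over all genes. With normexp the median was 0.12 in Irf4-/- cells and turned to -0.19 in Irf4+/- cells, where 7 of 79 genes were higher, and with median scaling it was 0.16 and 0.055. Without the 18 h array of letter A it was 0.036 in Irf4-/- and -0.16 in Irf4+/- cells, and without the 4 h array of letter A 0.34 and 0.35. Higher in all 3 letters were 59 genes in Irf4-/- cells (74.7%, against 32.6% of all genes) and 21 in Irf4+/- cells (26.6%, against 29.1% of all genes). Limma called 0 of 79 genes in either genotype, with the block or without it. Without the block 0.358% of all genes were called higher and 0.297% lower in Irf4-/- cells, and 0.574% and 0.668% in Irf4+/- cells. With it 4.99% were higher and 3.9% lower in Irf4-/- cells, and 5.44% and 6.65% in Irf4+/- cells. At an unadjusted p of 0.05 without the block, 0 subunit genes were higher in either genotype (4.76% of all genes in Irf4-/- and 4.47% in Irf4+/- cells). Cox7b came closest with the block, 0.34 higher in Irf4-/- and 0.33 higher in Irf4+/- cells (adjusted p 0.0547 and 0.0542). In letter B of Irf4+/- cells the median went the other way, -0.10, while letters A and C gave 0.36 and 0.16.

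No subunit gene was called between genotypes. The median of Irf4-/- minus Irf4+/- was 0.03 in mock cells, -0.02 after 4 h of IL-4 and 0.02 after 18 h of IL-4, and over all genes it was -0.06, -0.01 and 0.02. Limma called 0 of 79 subunit genes in any of the 3 conditions, with the block or without it, and 0 at an unadjusted p of 0.05 without the block, where 0.331% of all genes were higher in mock cells, 0.277% at 4 h and 1.67% at 18 h. Without the block 0% of all genes were called in mock cells and at 4 h, and 0.0135% higher and 0.0135% lower at 18 h. Few other genes were called with the block: 0.00675% higher and 0.027% lower in mock cells, 0% and 0.027% at 4 h, and 0.229% and 0.243% at 18 h. After 18 h the letter medians were -0.33, 0.10 and 0.23 in letters A, B and C, so that the experiments disagreed in direction. In mock cells the mean differences ran from -0.48 to 0.34, and the difference of the 4 h response between genotypes had a median of -0.05 with 0 genes called and 0 at an unadjusted p of 0.05 in limma (0.351% of all genes higher), and that of the 18 h response one of 0.01. The median for the 18 h response was 0.53 with normexp, -0.21 without the Irf4+/- mock array of letter A and 0.31 without the Irf4+/- 18 h array of letter A. For letters A and B genotype and slide cannot be told apart.

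Genes that build, feed or regulate the complexes were counted in the same fits with the block. In these fits 10.4% of all genes were called higher at 4 h and 11.8% at 18 h in Irf4-/- cells, and 10.3% and 7.91% in Irf4+/- cells. Called lower were 8.33% and 6.86% of all genes in Irf4-/- cells, and 8.48% and 8.01% in Irf4+/- cells. For the lists, calls higher alone are counted here, so the counts do not show that a list moved in 1 direction. Coq2 and Aox1, which were called lower, are described at the end. Mitochondrial ribosome genes, which make the proteins that the mitochondrial genome encodes, had their larger share of calls at 4 h: 24 of 75 were higher in Irf4-/- cells (32%) and 30 in Irf4+/- cells (40%), against 13 (17.3%) and 12 (16%) at 18 h. Mrpl15, of the large ribosomal subunit, was 1.09 higher in Irf4-/- and 1.19 higher in Irf4+/- cells at 4 h and was called without the block as well (adjusted p 0.00633 and 0.00314 without it). Of 41 assembly factors 10 were higher at 4 h in each genotype (24.4%), and 5 in Irf4-/- (12.2%) and 3 in Irf4+/- cells (7.32%) at 18 h. Tmem126b, which helps to assemble complex I, was called without the block at both times in both genotypes, with differences at 18 h of 0.70 in Irf4-/- and 0.90 in Irf4+/- cells.

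Of 16 carriers and other respiratory genes, 6 were called higher at 18 h in each genotype (37.5%), among them Etfa, a subunit of the flavoprotein that passes on electrons from fatty acid oxidation (0.64 in Irf4-/- and 0.63 in Irf4+/- cells), and Slc25a5, an ADP/ATP carrier (0.67 and 0.65). At 4 h 3 were called in Irf4-/- and 2 in Irf4+/- cells. Of 19 genes of the citric acid cycle and pyruvate dehydrogenase, 4 were called at each time in Irf4-/- cells (21.1%), and 3 at 4 h (15.8%) and 2 at 18 h (10.5%) in Irf4+/- cells. Of 18 genes of import and cristae, 4 were called at 4 h in each genotype (22.2%), and 1 in Irf4-/- (5.56%) and 2 in Irf4+/- cells (11.1%) at 18 h. At 18 h the shares of assembly factors (12.2% and 7.32%) lay near those of all genes, and the share of import genes in Irf4-/- cells lay below. Of 10 tested genes of coenzyme Q synthesis, Coq9 was the single gene called higher, at 4 h in Irf4-/- cells.

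Among 19 regulators of mitochondrial biogenesis, Ppargc1b, the coactivator PGC-1 beta, was called at both times in both genotypes with the block. It was 1.42 higher at 4 h and 1.01 higher at 18 h in Irf4-/- cells, and 1.85 and 1.79 higher in Irf4+/- cells, where it passed without the block too (adjusted p 0.00147 and 0.00169). In Irf4-/- cells it passed without the block at 4 h (0.0101) and not at 18 h (0.0774). Esrra, the nuclear receptor ERR alpha, was 0.55 higher in Irf4-/- and 0.53 higher in Irf4+/- cells at 4 h and was called with the block in both. The other regulators are not described singly, and how many of the 19 were called higher or lower is not given here. Ppargc1b and Esrra therefore do not stand for the list. Averaged over the 19 genes, levels ran from 0.32 to 0.62 in Irf4-/- cells after 18 h of IL-4, against 0.24 to 0.42 in mock cells. In Irf4+/- cells they ran from 0.25 to 0.59 after 18 h of IL-4, against 0.27 to 0.46 in mock cells. The ranges of IL-4 and mock cells overlapped in both genotypes.

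**Figure D4:**
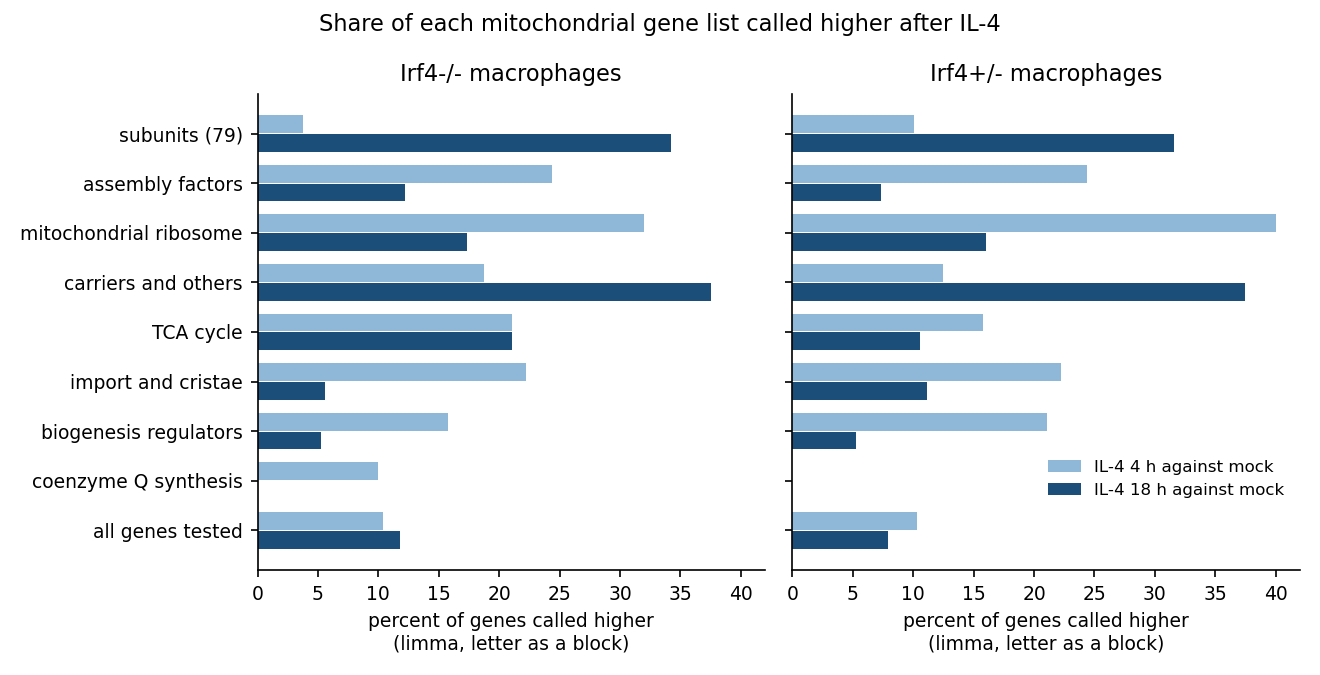
Percent of tested genes called higher by limma with the letter as a block at 4 h and 18 h of IL-4 against mock, for the subunit genes, 7 lists of related mitochondrial genes and all genes tested, in Irf4-/- macrophages (left) and Irf4+/- macrophages (right). The subunit bar is longer at 18 h (34.2% and 31.6%) than at 4 h (3.8% and 10.1%), and the ribosome bar is longer at 4 h (32% and 40%) than at 18 h (17.3% and 16%). Calls lower are not drawn.

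Markers of other states are described at 18 h as well. All 6 proliferation markers had a lower mean in IL-4 than in mock cells, with a median of -0.39 in Irf4-/- and -0.31 in Irf4+/- cells. In Irf4-/- cells 1 was called lower with the block, where 6.86% of all genes were. Their summed scaled signal ran from 29.1 to 83.9 in Irf4-/- cells after IL-4, against 58.3 to 93.9 in mock cells. In Irf4+/- cells it ran from 29.0 to 66.8 after IL-4, against 38.7 to 69.7 in mock cells. The ranges overlapped in both genotypes. Macrophage markers had 3 of 8 genes called lower with the block in each genotype. Of all genes, 6.86% were called lower in Irf4-/- and 8.01% in Irf4+/- cells. Calls higher and the direction of the other macrophage markers are not given. The sums over all 8 ran from 507 to 1042 in Irf4-/- cells after IL-4, against 483 to 882 in mock cells. In Irf4+/- cells they ran from 658 to 831 after IL-4, against 806 to 911 in mock cells. On all 18 arrays, 4 of 6 B-lineage, 2 of 6 T and NK cell, 5 of 6 neutrophil, 3 of 5 dendritic cell, 3 of 5 erythroid, 4 of 5 fibroblast and 1 of 4 mast cell and basophil markers were well above background, and at 18 h at most 1 gene of any of these lists was called in a direction. The summed B-lineage signal ran from 2.61 to 10.3 in Irf4-/- cells after 18 h of IL-4, against 5.16 to 24.1 in mock cells, and from 2.36 to 13.6 in Irf4+/- cells after IL-4, against 5.25 to 37.2 in mock cells, with a median log2 difference over 5 tested genes of -0.61 and -0.73 and 1 gene called lower in each genotype. The part of these markers in the subunit result was not tested, and in bulk RNA more cells of a type and more RNA per cell cannot be told apart.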

How the data were processed

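Labelled RNA of 18 cultures was hybridised in 1 colour to Agilent mouse arrays. The authors deposited scanner output whose processed intensity per spot is background-corrected, per the file headers (Agilent Feature Extraction 9.5.1), and a log2 table. The deposited log2 values equalled the scaled log2 intensity minus the Irf4+/- mock array of the same letter (lowest correlation 0.99999 over 10045 bright probes; column medians -0.18 to 0.21). From the intensity, log2 minus each array's 75th percentile was computed, outlier and control spots were left out, and spots of a probe were averaged. A probe was kept if well above background on all 3 arrays of a group (27505 of 41174 probes). Each array held 43379 spots, of which 63.4% to 74.4% were well above background and 0 to 3 saturated; with 3 arrays a group, the number of arrays limits the precision. Differences were tested in limma 3.58.1 (R 4.3.3) with 1 mean per group over all 18 arrays, with Benjamini-Hochberg adjustment over 14821 genes and two-sided p-values. The fit with the replicate letter as a block is given beside it, because arrays of 1 letter deviated together in every pair and the study describes independent experiments with littermates. Other code ran in Python 3.11.15 with pandas 2.3.3, numpy 2.4.6 and matplotlib 3.10.9. The limma fit without the block was tried on simulated data that held no letter effect, and the fit with the block was not. Alternatives were other background corrections, scalings, probe filters, probe choices, blocks, the deposited table and leaving out arrays.

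The subunit genes and the other gene lists were chosen with earlier results of these data known. Genes named were those called without the block, for each complex the 3 of smallest p and the largest and smallest difference at 18 h in Irf4+/- cells, and a list of well-known subunits; of other lists, at most 4 called genes for each comparison. Ndufa11, Ndufb6, Ndufc1, Ndufv2 and other subunits called with the block were added after their values were seen. Since the cells of several animals were pooled, p-values measure the spread between pooled cultures.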

Additional observations from a re-analysis of the deposited data

How the results depend on the processing

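Without a letter term, the count of subunit genes called stayed at 0 in every comparison when any array was left out. It was 0 in the main test and moved with a block for what arrays share. With the letter (replicate) block it was 27 in Irf4-/- and 25 in Irf4+/- cells at 18 h, and 3 and 8 at 4 h. With slide as a random block the counts were 39 and 42 at 18 h and 7 and 20 at 4 h. With the pool of cells (genotype and letter) as random block they were 56 and 52, and 18 and 18. With slide as a fixed block, chosen after seeing the data, they were 34 and 37, and 6 and 17. The deposited table gave 2 at 18 h in Irf4-/- cells. For 18 h against 4 h the counts were 1 (slide random), 2 (pool random) and 3 (slide fixed) in Irf4-/- cells and 1 (slide random) and 1 (pool random) in Irf4+/- cells. The replicate block changed no other call between genotypes or in response differences. Joined with the replicate block, after seeing the data, normexp gave 1 and 1 at 18 h and 1 and 1 at 4 h in Irf4-/- and Irf4+/- cells, median scaling 2 and 5, and 0 and 2, no filter on dim probes 16 at 18 h in Irf4-/- cells and 1 and 5 at 4 h, quantile normalization 17 at 18 h in Irf4-/- cells, and a fit on the groups compared alone 7 at 18 h in Irf4+/- cells. Without one letter these counts ran from 0 to 9 and from 1 to 3 at 18 h, and from 0 to 0 and from 0 to 1 at 4 h. Apart from the main test and the replicate block alone, the share of all genes called is not given for these settings. Their counts therefore do not show whether subunit genes were called more often than other genes. Leaving out 1 array moved the 18 h median between 0.21 and 0.54 in Irf4-/- cells and between 0.09 and 0.57 in Irf4+/- cells. The lowest Irf4+/- value is without the 18 h array of letter A.

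With normexp as planned, the median difference of the 18 h response between genotypes was 0.53, against 0.01, and 33 of 79 subunit genes were higher at 18 h in Irf4+/- cells, against 76. Among the genes described above, these differences turned: Atp5b -0.19, Atp5s 0.23, Cox4i1 -0.14, Cox5a -0.10, Cox6b2 0.47, Cox7a1 -0.11, Cox7a2l -0.29, Ndufa4 -0.073, Ndufs1 -0.089, Ndufs4 -0.34, Ndufv1 -0.23, Ndufv2 -0.18, Sdha -0.039, Sdhb -0.27, Sdhc -0.18, Uqcrc2 -0.26 and Uqcrfs1 -0.082. In Irf4-/- cells Cox6b2 turned to -0.15 and Cox7a1 to -0.043 with it. Other turns in Irf4-/- cells were Atp5s -0.023, Cox6b2 -0.044 and Cox7a1 -0.055 with median scaling, Cox4i1 -0.053 and Cox7a1 -0.018 with quantile normalization, Cox5a -0.019 with the mean over probes, and Cox7a1 -0.053 with normexp fitted without dim spots and -0.12 without the slide of the Irf4-/- arrays of letter A. The cause was not tested. With 1 array left out, differences that changed sign ran in Irf4-/- cells from -0.015 to 0.080 for Atp5s, -0.090 to 0.16 for Cox6b2, -0.36 to 0.24 for Cox7a1 and -0.012 to 0.34 for Ndufs4, and in Irf4+/- cells from -0.34 to 0.11 for Atp5s, -0.047 to 0.57 for Cox4i1, -0.35 to 0.14 for Cox6b2, -0.30 to 0.43 for Cox7a1, -0.18 to 0.37 for Cox7a2l, -0.12 to 0.36 for Ndufs4 and -0.021 to 0.31 for Uqcrc2.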

Other observations

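Coq2, an enzyme of coenzyme Q synthesis, was called lower with the letter as a block at 18 h, by a log2 difference of -0.47 in Irf4-/- and -0.69 in Irf4+/- macrophages. Aox1, an aldehyde oxidase counted among the other respiratory genes, was 1.27 lower on the log2 scale at 18 h in Irf4+/- macrophages (adjusted p 0.039 in limma without the block).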
